A study of Mus musculus with 48 samples.

Results

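Fibroblast growth factor (FGF) signalling and its feedback were followed through 10 genes taken by symbol from a list: the ligand Fgf4, the receptors Fgfr1 and Fgfr2, the Sprouty genes Spry2 and Spry4, the phosphatase gene Dusp6, the ETS transcription factor genes Etv4 and Etv5, and the Sprouty-related genes Spred1 and Spred2. Of these 10 genes, 5 were listed in all 48 libraries (Fgf4, Spry2, Spry4, Spred1 and Spred2) and 3 in some of them (Fgfr2, Dusp6 and Etv5). Fgfr1 and Etv4 were in none of the tables used here and were not analysed. For comparison, the tables held 23862 gene identifiers, of which 10694 were listed in all 48 libraries. A gene is listed only where its value is above 0.

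In mouse embryonic stem cells, FGF4 is secreted by the cells themselves and binds FGF receptor tyrosine kinases on their surface. The receptors act through adaptor proteins, Ras, Raf and MEK on the kinase ERK, which is known for priming these cells to leave the naive state. ERK activity in turn raises transcription of its own inhibitors. Sprouty and Spred proteins act on the way from receptor to Raf, DUSP6 removes phosphate from ERK, and ETV4 and ETV5 are transcription factors whose genes are widely used as readouts of the pathway.

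All samples were E14TG2a cells, a mouse embryonic stem cell line, treated with 1 µM flavopiridol, which inhibits the kinase CDK9 and so stops RNA polymerase II from leaving the promoter-proximal pause. Every group, the 0 min reference included, was kept in serum-containing medium with LIF and the 2i inhibitors, CHIR99021 at 3 µM against GSK3 and PD0325901 at 1 µM against MEK, so the kinase step that induces the feedback genes was inhibited throughout. Polyadenylated RNA was sequenced from unfractionated cells (total) and from nuclear, cytosolic and membrane fractions separated by detergents, with 3 independently passaged replicates at 30, 60, 120 and 240 min in each. Every value is a ratio, a gene's level over that of the 0 min sample of its fraction, so 1 means no difference from 0 min, and neither the starting level of a gene nor its share in each fraction can be read from it.

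The read depth is not stated in the tables and is treated as unknown, so no counting interval is given. Libraries listed between 15067 and 19501 genes. Of 8 embryonic stem cell markers, 5 (Pou5f1, Nanog and Sox2 among them) were listed in all 48 libraries and none was missing throughout, whereas 0 of 6 primitive endoderm markers and 0 of 5 fibroblast markers were listed in all 48. Of the endoderm markers, Gata4, Pdgfra and Foxa2 were listed in none, but Gata6 was listed in 42 libraries and Sox7 in 38, and of the fibroblast markers Col1a1 was listed in 44 and Thy1 in 43. Of 6 early lineage markers, Eomes and Krt18 were listed in all 48, Sox1 in 47 and T in 46. A listed ratio gives no level, so the part of other cell types was not tested. Among the nuclear libraries of 30 min, replicate 1 stood apart, with a median ratio of 0.592 over the genes tested against 0.949 and 0.823 in the other replicates.

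Several of the 10 genes carry copies of the heptamer TATTTAT, which holds the pentamer ATTTA of AU-rich elements, in their 3′ untranslated regions (UTRs). AU-rich elements are bound by proteins such as tristetraprolin that recruit deadenylases, and many short-lived mRNAs have them. The windows below show the heptamers of 5 genes in capitals with 7 bases of the 3′ UTR on each side. The 4 copies in Spry4 are counted but not shown. The windows are given because copies of the heptamer were found both in the fastest and in the slowest of the 5 genes listed throughout. Sequences and coordinates are from the GRCm38 genome with GENCODE M21 transcripts, and each site lies in the 3′ UTR of the transcript with the longest coding sequence.
Fgf4, chr7:144863073-144863093, plus strand: gcccaatTATTTATaatttta
Spry2, chr14:105892096-105892116, minus strand: taaagaaTATTTATttgaagt
Spry2, chr14:105892057-105892077, minus strand: aaaagaaTATTTATtttaaga
Etv5, chr16:22381766-22381786, minus strand: ataagcaTATTTATagctttc
Spred1, chr2:117178246-117178266, plus strand: attttcaTATTTATgcactag
Spred1, chr2:117179577-117179597, plus strand: gcatttaTATTTATatgacag
Spred1, chr2:117180906-117180926, plus strand: tttaaaaTATTTATtgaaact
Spred2, chr11:20023427-20023447, plus strand: gtgccccTATTTATttcagtg

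The heptamer was searched on the transcript strand, with overlapping matches counted. It was present in 26.5% of the 14056 listed genes with an annotated 3′ UTR, and the pentamer in 64.3%. Spry2 had 2 heptamers in a 3′ UTR of 856 bases, and of 1794 genes with a 3′ UTR within 20% of that length 4.12% had as many. Spry4 had 4 in 3559 bases, against 3.27% of 1194 genes of like length with as many. Spred1 had 3 in 4330 bases, where 11.3% of 866 genes of like length had as many. Fgf4 had 1 in 2302 bases and Spred2 had 1 in 2579 bases, which 41.4% and 45.3% of genes of like length matched. Dusp6, at 1189 bases, had none, and its single pentamer was matched by 79.9% of genes of like length. These are matches of letters in an annotated transcript, and their part in the decay described below was not tested.

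Fgf4 (ENSMUSG00000050917, chr7:144847367-144865243 on the plus strand of GRCm38) encodes the FGF ligand of the naive cells and had the steepest fall of the 5 genes in total RNA. In total RNA the 3 replicates read 0.398, 0.533 and 0.533 of the 0 min level at 30 min. They read 0.112, 0.0964 and 0.133 at 60 min. At 120 min they read 0.0138, 0.0166 and 0.0189, and at 240 min 0.00997, 0.00985 and 0.00972. The replicates of each time lay apart from those of the next, and at 240 min the mean ratio was 0.00984 ± 0.00012 (SD, n = 3). As in any bulk sample, fewer cells expressing a gene and less RNA per cell cannot be told apart.

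The other fractions gave much the same course for Fgf4. In the nucleus it was at 0.286, 0.438 and 0.378 at 30 min and at 0.00830, 0.00755 and 0.00761 at 240 min. The nuclear value of replicate 1 at 120 min, 0.0670, was apart from 0.0132 and 0.0189 in the other replicates. In the cytosol the 30 min ratios were 0.421, 0.474 and 0.565 and the 240 min ratios 0.0182, 0.0154 and 0.0105. In the membrane fraction they went from 0.559, 0.608 and 0.683 to 0.0134, 0.0124 and 0.0125. Early and late replicates did not overlap in any fraction.

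**Figure D1:**
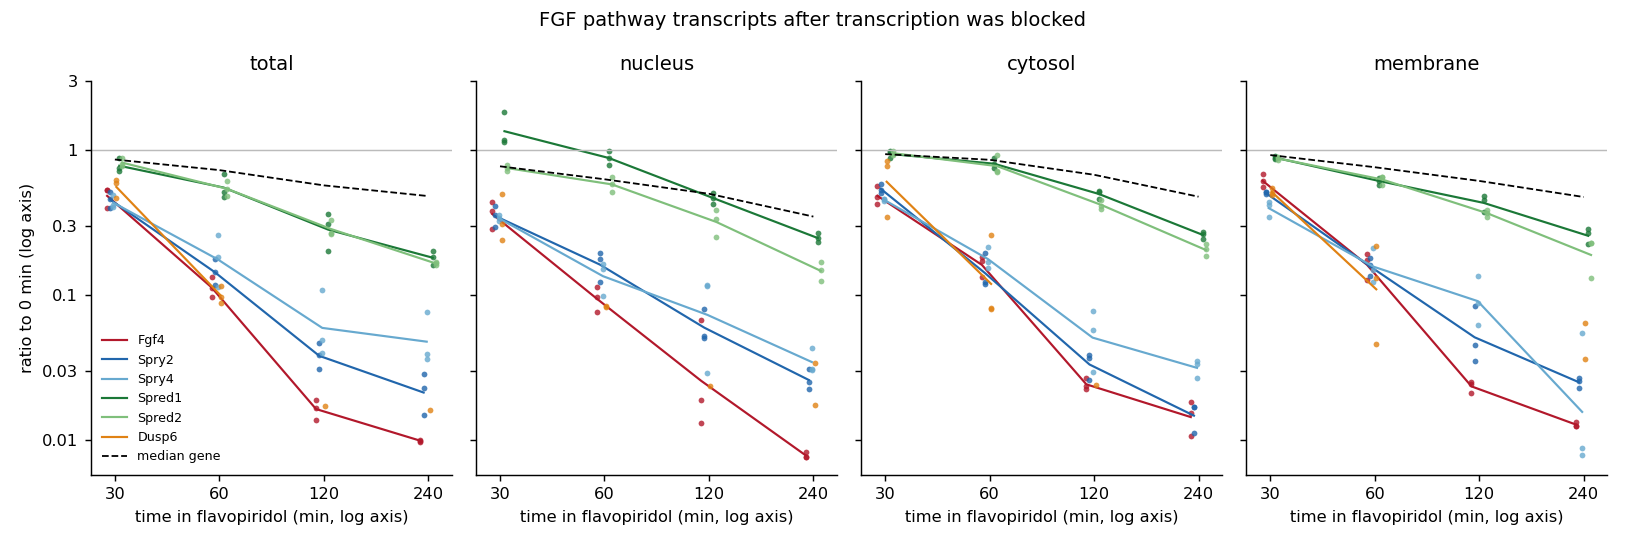
Ratio to 0 min (log axis) against time in flavopiridol (min, log axis) in total, nuclear, cytosolic and membrane RNA. Points are replicates, coloured lines join geometric means at times where all 3 replicates were listed, and the dashed line is the median of all genes tested in that fraction; the lines of Fgf4, Spry2, Spry4 and, up to 60 min, Dusp6 run below the dashed line, and Spred1 and Spred2 drop away from it later.

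The FGF receptors gave less to compare. Fgfr2 (ENSMUSG00000030849), one of the receptor tyrosine kinases that bind FGF4, was listed in 7 of 12 total libraries, 11 nuclear and 11 membrane ones, and in 0 cytosolic ones. In the nucleus its ratios were 0.720, 1.13 and 1.39 at 30 min, 1.95, 1.03 and 2.36 at 60 min, 3.00 and 1.51 in the replicates listed at 120 min, and 0.272, 0.488 and 0.239 at 240 min. Nuclear Fgfr2 was therefore above its 0 min level in 7 of the 8 libraries that listed it up to 120 min. Replicate 1 of 120 min did not list it, and a gene is listed only where its value is above 0. In each library of 240 min nuclear Fgfr2 was below its 0 min level. Its listed replicates overlapped between 30, 60 and 120 min.

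With genes listed in at least 9 of 12 libraries and missing values left out, Fgfr2 fell in the nucleus by 0.58 ± 0.18 log2 per h (SE, limma adjusted p = 0.0133), where 56.9% of genes passed the same test downward. In the membrane fraction its slope was -0.45 ± 0.18 with an adjusted p of 0.0537, and 56.5% of genes passed. Its nuclear log2 ratios had an SD of 0.49 at 30 min, 0.62 at 60 min and 0.55 at 240 min (n = 3). The nuclear change from 30 to 60 min, 0.69 on the log2 scale, had a 95% interval from -0.25 to 1.63.

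Spry2 (ENSMUSG00000022114, chr14:105891947-105896819 on the minus strand) encodes a Sprouty protein, an inhibitor of receptor tyrosine kinase signalling, and carries the pair of heptamers shown above. In total RNA its ratios were 0.513, 0.400 and 0.459 at 30 min, 0.145, 0.117 and 0.176 at 60 min, 0.0306, 0.0467 and 0.0385 at 120 min, and 0.0284, 0.0226 and 0.0148 at 240 min. The times did not overlap. In the nucleus Spry2 went from 0.355, 0.410 and 0.296 to 0.0225, 0.0308 and 0.0250 between 30 and 240 min. In the cytosol it went from 0.507, 0.535 and 0.586 to 0.0111, 0.0169 and 0.0169, and in the membrane fraction from 0.494, 0.511 and 0.514 to 0.0226, 0.0267 and 0.0256.

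Spry4 (ENSMUSG00000024427) is the other Sprouty gene and was more variable. In total RNA its ratios were 0.402, 0.488 and 0.416 at 30 min and 0.184, 0.113 and 0.261 at 60 min. They were 0.0487, 0.0396 and 0.108 at 120 min and 0.0362, 0.0758 and 0.0393 at 240 min, so that the last 2 times overlapped. In the membrane fraction the 240 min ratios split, with 0.0545 in replicate 1 against 0.00787 and 0.00882 in the others. In the nucleus Spry4 ended at 0.0433, 0.0310 and 0.0304 and in the cytosol at 0.0349, 0.0332 and 0.0266, all below the lowest 60 min ratio of the same fraction.

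Dusp6 (ENSMUSG00000019960, chr10:99263231-99267489 on the plus strand) encodes the cytoplasmic phosphatase that acts on ERK. It was listed in 12 of 12 libraries at 30 min, in 11 at 60 min, in 3 at 120 min and in 5 at 240 min. Of the 12995 genes listed in all 12 libraries of 30 min, 2.02% were listed in 5 or fewer at 240 min. In total RNA the Dusp6 ratios were 0.591, 0.466 and 0.627 at 30 min and 0.115, 0.0876 and 0.0963 at 60 min, and later only 1 library a time listed it, at 0.0172 and 0.0161. The 60 min replicates of total RNA all lay below the 30 min ones. In the cytosol replicate 1 stood higher at 60 min, at 0.260 against 0.0795 and 0.0819.

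In a fit of the 6 total libraries of 30 and 60 min, Dusp6 differed by -2.49 ± 0.29 log2 units (SE), with a 95% interval from -3.19 to -1.79. Its limma adjusted p was 0.0761, in a fit where 0.0207% of 14477 genes passed downward. In the cytosol the difference was -2.34 ± 0.63 (adjusted p = 0.137), and in the membrane fraction, where the ratios went from 0.507, 0.548 and 0.490 to 0.0459, 0.130 and 0.219, Dusp6 fell by 2.23 ± 0.59 (adjusted p = 0.0495), where 21.2% of genes passed the same test downward. Because a gene had to be listed in every library of a fit, Dusp6 entered none of the fits over all 4 times. The counts of genes that fell given below leave it out for that reason, except those from the 6 libraries of 30 and 60 min alone.

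Spred1 (ENSMUSG00000027351, chr2:117121374-117182279 on the plus strand) and Spred2 (ENSMUSG00000045671, chr11:19924375-20024026 on the plus strand) encode membrane-associated inhibitors of Ras and Raf that recruit neurofibromin. Both stood above the Sprouty genes at every time in total RNA, with no overlap of replicates. In total RNA Spred1 was at 0.718, 0.884 and 0.747 at 30 min and at 0.161, 0.182 and 0.202 at 240 min. Spred2 was at 0.781, 0.806 and 0.875 at 30 min and at 0.165, 0.161 and 0.170 at 240 min. The values of the 2 Spred genes overlapped at each time in total RNA.

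Nuclear Spred1 was above its 0 min level at 30 min in each replicate, at 1.13, 1.85 and 1.18. Outside the nucleus the highest 30 min ratio of Spred1 was 0.985. All 3 nuclear ratios of 30 min were above 1 for 8.12% of the 13343 genes tested in the nucleus. Replicate 1, the library with the low median, was above 1 for Spred1 too. Nuclear Spred2 had ratios of 0.715, 0.790 and 0.752 at the same time.

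Spred1 spans 60.9 kb and Spred2 99.7 kb, against 4.87 kb for Spry2. Of nuclear genes of 30 to 100 kb, 26.6% had a mean log2 ratio above 0 at 30 min, against 21.7% of genes under 10 kb, 14.5% of genes of 10 to 30 kb and 33.9% of genes over 100 kb. The part of gene length in the Spred1 value was not tested. From 60 min on, nuclear Spred1 was below its 0 min level in all replicates, at 0.783, 0.884 and 0.991, and it ended at 0.266, 0.231 and 0.246.

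Etv5 (ENSMUSG00000013089) was listed in 4 libraries, all nuclear. Its ratios were 0.523, 0.823 and 0.675 at 30 min and 0.571 in the single library of 60 min that listed it, and no test could be run. Etv4, the other ETS factor gene of the list, was not analysed here.

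The changes were tested with limma on log2 of the ratio, as a slope on time over the 12 libraries of a fraction. P-values had Benjamini-Hochberg adjustment over all genes tested. The error of such a slope holds the departure of a course from a straight line as well as the spread between replicates. In total RNA 5 of the 5 genes tested fell and 0 rose, where 56.9% of 12762 genes fell and 3.39% rose. The same count, 5 fallen and 0 risen, held for nuclear RNA, where 61.9% of 13343 genes fell and 3.32% rose. It held for cytosolic RNA, where the shares were 67.1% and 2.95% of 11979, and for membrane RNA, where they were 62.2% and 4.09% of 12408. In the nucleus all 5 also fell with the 30 min library of replicate 1 left out. Since most genes fell, the counts alone say little about these 5 genes, and the sizes of the slopes carry the description.

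Fgf4 fell by 1.49 ± 0.23 log2 per h in total RNA (SE, adjusted p = 9.88e-05), and 0.549% of genes had a lower slope. Spry2 fell by 1.17 ± 0.17 (adjusted p = 6.64e-05), with 2.37% of genes lower. Spry4 fell by 0.83 ± 0.17 (adjusted p = 0.00109), with 7.60% lower. The Spred genes had shallower slopes and smaller errors. Spred1 fell by 0.59 ± 0.08 (adjusted p = 2.16e-05) and Spred2 by 0.64 ± 0.06 (adjusted p = 1.51e-06), with 16.9% and 14.5% of genes lower.

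The median slope over the 5 genes was -0.83 log2 per h in total RNA against -0.22 over all genes. It was -0.85 against -0.30 in nuclear, -1.03 against -0.28 in cytosolic and -1.14 against -0.26 in membrane RNA. Fgf4 had the steepest slope of the 5 genes in each fraction, with -1.47 ± 0.19 for nuclear, -1.38 ± 0.20 for cytosolic and -1.50 ± 0.21 for membrane RNA. Differences in slope between genes were not tested. In the cytosol Spry2 was close to Fgf4, at -1.37 ± 0.18. The ranges given by the SE also overlapped in total RNA, with Fgf4 at -1.49 ± 0.23 and Spry2 at -1.17 ± 0.17. They overlapped in membrane RNA too, where Spry4 was the next gene. In the nucleus they did not overlap, with Spry2 the next gene at -1.02 ± 0.12. Spry4 was at -0.85 ± 0.15, -1.03 ± 0.16 and -1.26 ± 0.17 in nucleus, cytosol and membrane.

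**Figure D2:**
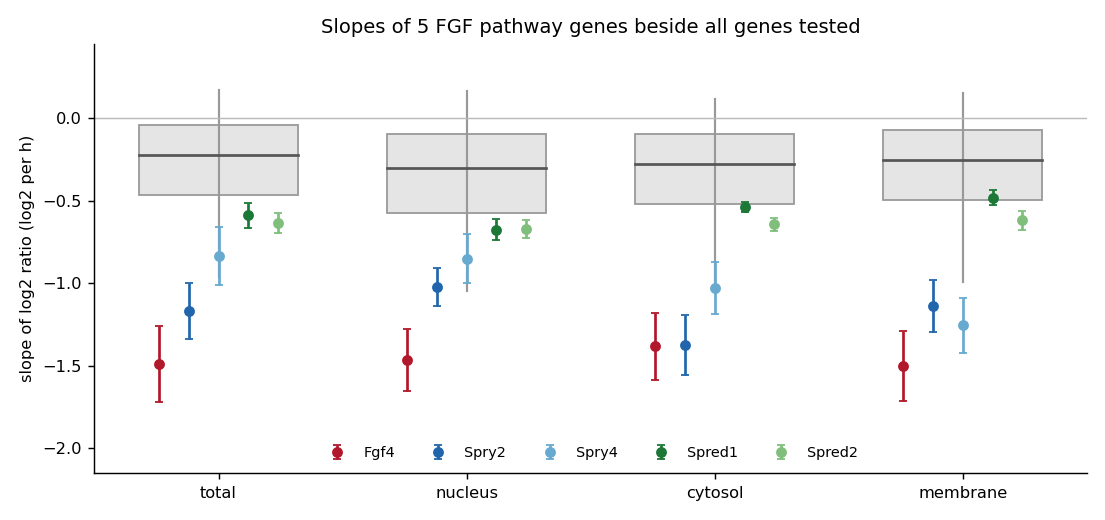
Slope of the log2 ratio on time (log2 per h) in each fraction. Coloured points are the 5 genes with their SE from limma (12 libraries each); the grey box spans the middle 50% of all genes tested, its line is their median and the whisker runs from the 5th to the 95th percentile. Fgf4 lies below the whisker in all 4 fractions.

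A single slope hides the shape of the course, so the change was also taken over single intervals. From 30 to 60 min in total RNA, Fgf4 fell by 2.10 ± 0.20 log2 units (SE, limma adjusted p = 0.00802) and Spry2 fell by 1.66 ± 0.28 (adjusted p = 0.0253), 2 of 5 genes where 2.32% of all genes fell. Spry4 had an adjusted p of 0.12, and Spred2, at -0.60 ± 0.14, one of 0.0561. In the cytosol Fgf4 fell by 1.58 ± 0.22 (adjusted p = 0.0191) and Spry2 by 1.94 ± 0.25 (adjusted p = 0.0157), where 1.89% of genes fell.

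In the membrane fraction 3 of 5 genes fell from 30 to 60 min, Fgf4 by 1.93 ± 0.18, Spry2 by 1.69 ± 0.28 and Spred1 by 0.54 ± 0.13 (adjusted p = 0.00218, 0.0135 and 0.0323), where 12.7% of genes fell. In the nucleus 0 of 5 passed in limma, where 2.18% of genes did, although 4 of the 5 had an unadjusted p under 0.05. In limma without a trend 2 passed there, where 4.26% of genes did. Nuclear Fgf4 differed by -1.94 ± 0.51 with an adjusted p of 0.0676. The membrane call of Spred1 was lost when libraries were centred on their median gene (adjusted p = 0.13) or scaled to ribosomal protein genes (0.115). With any single replicate left out, 0 of the 5 genes passed in total, cytosol and membrane and 0 or 1 in the nucleus. Of all genes, 0% then passed in total and cytosol and at most 0.0312% in membrane. In the nucleus 5.43% passed without replicate 1, and 0% without replicate 2 or replicate 3. The change of Fgf4 in total RNA stayed between -2.23 and -1.92.

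The late interval was different. From 120 to 240 min in total RNA, Fgf4 fell by 0.73 ± 0.20, Spry2 by 0.84 ± 0.28 and Spred2 by 0.79 ± 0.14 log2 units (limma adjusted p = 0.018, 0.0407 and 0.00199), where 29.2% of genes fell. Without replicate 2, and likewise without replicate 3, 0 of these 3 calls held, and the share over all genes dropped to 12.8% and 11.9%. The call of Spry2 was also lost with libraries centred on their median gene (-0.60, adjusted p = 0.0929). Spry4 stood at -0.32 ± 0.44 with an adjusted p of 0.62, and with that error neither a further drop nor none could be told. Spred1 stood at -0.64 ± 0.23 with an adjusted p of 0.0542.

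In the other fractions the late interval gave 4 of 5 falling genes in the nucleus (34.3% of all genes fell), 4 of 5 in the cytosol (47.9%) and 5 of 5 in the membrane fraction (37.6%). Left-out replicates lowered these counts to 1 in the nucleus (without replicate 3, 10.9% of all genes), 2 in the cytosol (without replicate 1, 37.2%) and 2 in the membrane fraction (without replicate 3, 26.3%). The nuclear count also hung on the scaling. It was 2 with centring, and with mitochondrially encoded mRNAs as the scale it was 0, with nuclear Spry4 at 0.0084 and Spred1 at 0.17, while the median of all genes moved from -0.50 to 0.59. The exception in nucleus and cytosol was Spry4, at -1.08 ± 0.49 and -0.69 ± 0.31 (adjusted p = 0.107 and 0.092). In the membrane fraction Spry4 fell by 2.54 ± 0.64 (adjusted p = 0.00917), with the split replicates given above.

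Expressed per hour, the rate of Fgf4 in total RNA was -2.10 log2 per h from 0 to 30 min, -4.20 from 30 to 60 min, -2.79 from 60 to 120 min and -0.36 from 120 to 240 min. Spry2 went through -2.27, -3.32, -1.92 and -0.42, and Spry4 through -2.41, -2.60, -1.57 and -0.16. The median gene went through -0.44, -0.48, -0.35 and -0.12. These 3 genes thus lost most of their RNA before 120 min. After it the rates of Fgf4 and Spry2 were close to those of Spred1 (-0.32) and Spred2 (-0.39), and that of Spry4 was nearer the median gene. These rates are differences of means, and the differences between intervals were not tested.

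The rates of the first 30 min are given by fraction, and differences between fractions in that interval were not tested. In the nucleus Fgf4, Spry2 and Spry4 changed by -2.93, -3.03 and -3.12 log2 per h from 0 to 30 min, while in the membrane fraction they changed by -1.41, -1.96 and -2.66. The median gene showed the same order, with -0.76 in the nucleus against -0.24 in the membrane fraction, and each ratio is relative to its own fraction at 0 min. Of the nuclear libraries of 30 min, the one with the low median, replicate 1, was the lowest of 3 for Fgf4 but not for Spry2 or Spry4. Cytosolic Spred1 and Spred2 changed by -0.17 and -0.14 log2 per h in that interval and by -0.69 and -0.89 from 60 to 120 min.

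**Figure D3:**
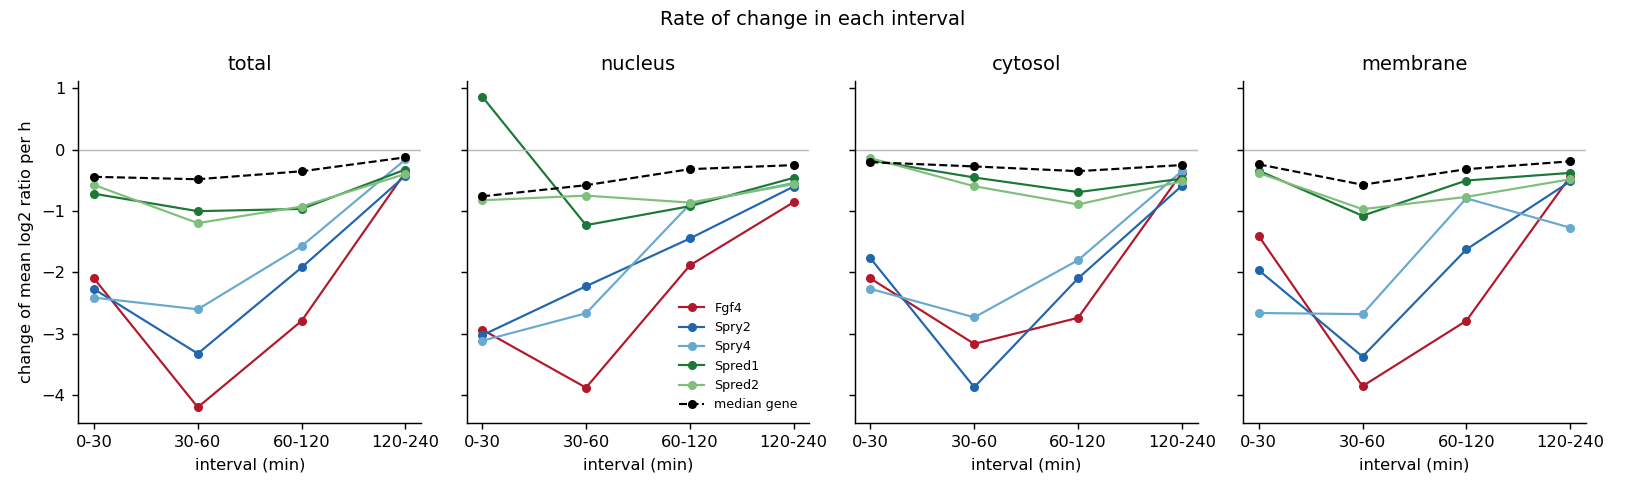
Change of the mean log2 ratio per h (mean of 3 replicates) in the intervals 0 to 30, 30 to 60, 60 to 120 and 120 to 240 min, for the 5 genes and for the median of all genes tested (dashed). In total RNA Fgf4 goes from -2.10 to -4.20 and back to -0.36 log2 per h, and nuclear Spred1 is the single point above 0, at 0.87 from 0 to 30 min.

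Half-lives were taken from a single exponential with a free starting level, fitted to the 12 ratios of a fraction, with the SD over fits to each replicate series as the error (n = 3). In total RNA they were 14.4 ± 2.18 min for Fgf4, 19.1 ± 2.95 min for Spry2, 27.8 ± 16.6 min for Spry4, 67.5 ± 3.78 min for Spred2 and 76.0 ± 15.7 min for Spred1. The median over the 5 genes was 27.8 min, against 244 min over all 12762 genes. Of all genes, 0.149% had a shorter half-life than Fgf4 in total RNA and 0.454% a shorter one than Spry2. The exponential was fitted to the ratio itself, so the small ratios after 60 min weighed little in it. The level of 1 at 0 min was not among the fitted values. With the starting level fixed at 1, Fgf4 had 24.3 min and Spry2 24.5 min in total RNA.

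With the starting level free, the order had some steps free of overlap. In total RNA the replicate series of Spry2 and Spry4 overlapped, as did those of Spred2 and Spred1, while the highest Fgf4 series (16.5 min) lay just under the lowest Spry2 series (16.9 min) and the highest Spry4 series (47.7 min) under the lowest Spred2 series (64.8 min). With 3 series a gene, a two-sided exact permutation test cannot go below p = 0.1, and the order is given as a description. In the nucleus each pair of neighbours overlapped. In cytosolic and membrane RNA the gap between Spry4 and Spred2 was again free of overlap, with 26.0 against 83.6 min and 34.2 against 73.2 min at its edges. Spred2 also lay clear of Spred1 in both, and Spry2 clear of Spry4 in membrane RNA. The step between Spry2 and Spry4 in membrane RNA turned with other fits. They stood at 26.9 and 23.4 min with the starting level fixed at 1, and at 52.8 and 47.8 min with a straight line on log2 of the ratio.

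In nuclear, cytosolic and membrane RNA, in that order, Fgf4 had 16.2 ± 6.71, 19.2 ± 3.28 and 15.9 ± 2.32 min. Spry2 had 31.2 ± 11.9, 16.2 ± 2.74 and 19.2 ± 2.93 min. Spry4 had 33.3 ± 15.2, 24.1 ± 2.85 and 31.0 ± 5.44 min. Spred1 had 62.6 ± 24.8, 107 ± 8.80 and 103 ± 14.0 min, and Spred2 80.9 ± 13.2, 85.1 ± 1.40 and 81.6 min (SD 7.999). The median gene had a longer half-life in every fraction, with 176 min for nuclear, 213 min for cytosolic and 219 min for membrane RNA.

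Some half-lives depended on whether the level at 0 min was fixed at 1. With it fixed, Fgf4 went from 14.4 to 24.3 min in total RNA and from 15.9 to 30.4 min in the membrane fraction, Spry2 from 16.2 to 27.4 min in the cytosol, and nuclear Spred1 from 62.6 to 161 min. A straight line on log2 of the ratio gave longer values in total RNA, with 40.3 min for Fgf4, 51.4 for Spry2, 71.9 for Spry4, 94.2 for Spred2 and 102 for Spred1. With libraries centred on their median gene, Spred1 stood at 145 min and Spred2 at 126 min. The gap between the Sprouty genes and the Spred genes was present with the level at 0 min fixed as well. In total RNA Spry2 and Spry4 were then at 24.5 and 25.3 min and Spred1 and Spred2 at 75.8 and 75.3 min. Fgf4, at 24.3 min, was no longer set apart from the Sprouty genes there. In the cytosol the order changed, with Spry4 at 25.7, Fgf4 at 25.9 and Spry2 at 27.4 min.

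**Figure D4:**
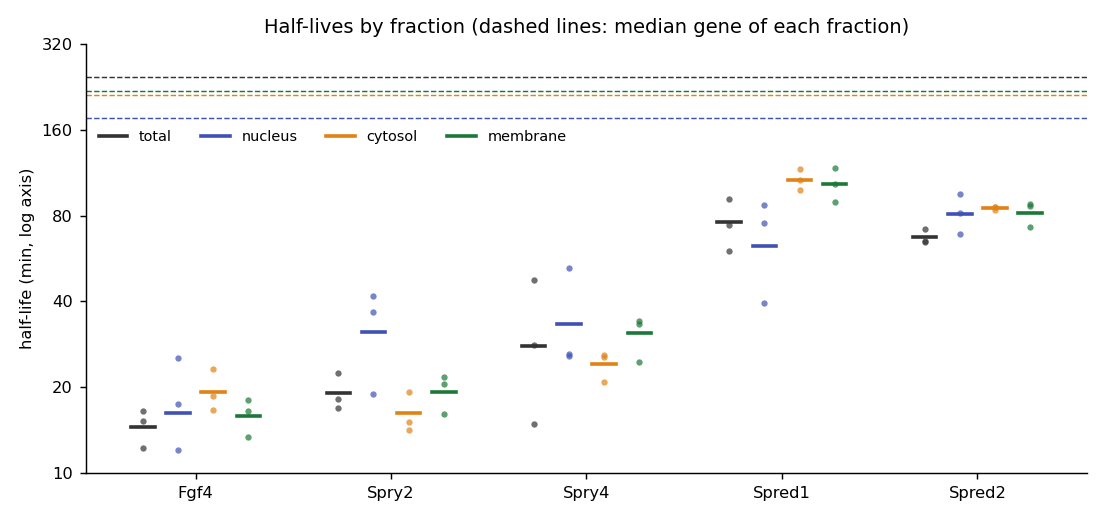
Half-life (min, log axis) of the 5 genes by fraction. Short bars are the fit to all 12 libraries of a fraction, points are fits to the 3 replicate series, and dashed lines mark the median of all genes in each fraction, from 176 min (nucleus) to 244 min (total); Fgf4, Spry2 and Spry4 sit at or below 52.2 min and Spred1 and Spred2 between 39.5 and 117 min.

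Whether a gene fell faster in one compartment than in another was tested as the interaction of time with fraction over 24 libraries. In limma 0 of 5 genes differed in slope between nucleus and cytosol, where 8.3% of 11232 genes had a lower and 12.3% a higher slope in the nucleus. Likewise 0 of 5 differed between membrane and cytosol, where 1.76% of 11086 genes were lower and 4.94% higher in the membrane fraction. In either comparison 0 of 5 had an unadjusted p under 0.05, and limma without a trend also gave 0.

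The intervals show what could have been missed with a straight slope in each fraction. Their widths hold the departure of a course from that line as well as the spread between replicates, and the parts were not separated. For Fgf4 the nuclear slope minus the cytosolic slope was -0.08 log2 per h with a 95% interval from -0.66 to 0.49, and for Spry2 it was 0.35, from -0.09 to 0.80. For Spry4 it was 0.18, from -0.28 to 0.63. The intervals of the Spred genes were narrower, with -0.14 (from -0.28 to 0.01) for Spred1 and -0.03 (from -0.16 to 0.10) for Spred2. For membrane minus cytosol the differences lay between -0.23 for Spry4 (from -0.71 to 0.26) and 0.24 for Spry2 (from -0.27 to 0.74).

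One call appeared under other settings. Spry2 had a higher, that is shallower, slope in the nucleus than in the cytosol when each harvest was a block (0.35, adjusted p = 0.0306) and when the last time was taken as 180 min, as the protocol text has it (0.55, adjusted p = 0.0494). Scaling each library to the mitochondrially encoded mRNAs made 3 of 5 genes lower in the membrane fraction than in the cytosol (Spry4, Spred1 and Spred2), as it did 56.6% of all genes, with the median of all genes moving from 0.03 to -0.36 log2 per h under that scaling.

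**Figure D5:**
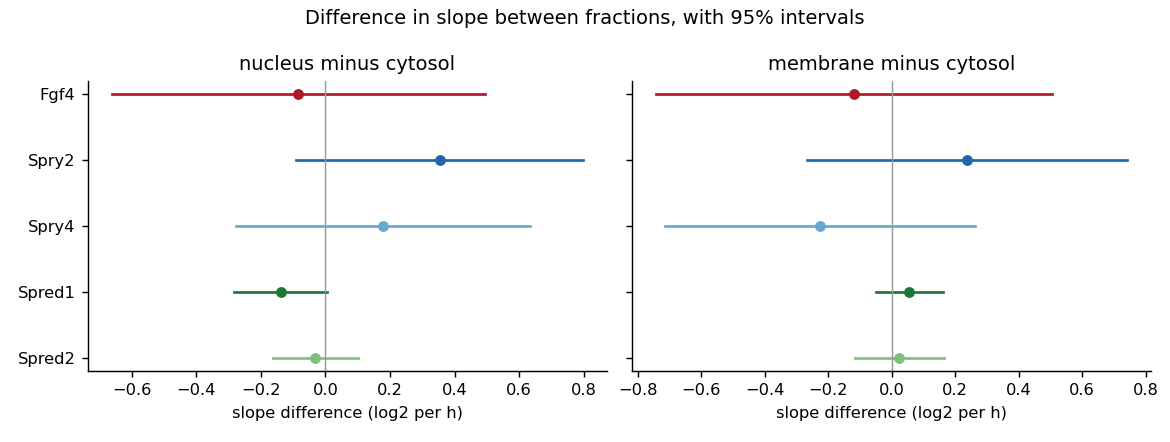
Difference in slope (log2 per h) between nucleus and cytosol (left) and between membrane and cytosol (right) for the 5 genes. Points are limma estimates over 24 libraries and lines their 95% intervals; each interval includes 0, and those of Fgf4, Spry2 and Spry4 are several times wider than those of Spred1 and Spred2.

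The rest of the pathway was followed through lists of other genes, by role. Of 16 other ligands and co-receptors, 10 could be tested in total RNA and 8 fell, where 56.9% of all genes fell. Their median slope was -0.41 log2 per h. The shortest half-life among them was that of Fgf3, a further FGF ligand, at 32.4 ± 10.6 min, and Fgf1 and Gpc3 had no finite one. Gpc3, a glypican of the cell surface, had a positive slope that passed the test in cytosolic RNA, 0.19 ± 0.07 log2 per h (limma adjusted p = 0.0294), and in membrane RNA, 0.15 ± 0.04 (adjusted p = 0.00327), the latter turning to -0.08 with scaling to the mitochondrially encoded mRNAs. Of the other receptors, 2 of 2 tested fell in total RNA, Fgfrl1 and Fgfr4, with half-lives of 72.1 ± 49.2 and 122 ± 48.9 min.

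Among adaptors and exchange factors 5 of 6 tested fell in total RNA (56.9% of all genes fell), with a median slope of -0.49. Frs3, an adaptor that docks on FGF receptors, was the shortest at 39.6 ± 4.89 min, and Shc1 the longest at 1851 min with 1 series without a finite value. Among Ras and Raf genes 4 of 6 fell, with a median slope of -0.13. Ksr1, a scaffold of the Raf and MEK complex, had 60.8 min (SD 11.998), the shortest of them. Among MEK, ERK and their substrate kinases 3 of 4 fell, with a median slope of -0.20 and half-lives from 184 ± 31.4 min (Map2k1) to 980 min (Rps6ka3). Both lists of kinases and GTPases thus stood near the median of all genes, -0.22.

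Other negative regulators gave 7 of 9 falling genes in total RNA (56.9% of all genes fell) and a median slope of -0.37. Dusp5, a phosphatase of ERK in the nucleus, had the shortest half-life at 26.97 ± 9.39 min, close to 27.8 min for Spry4, while Dusp9 and Spred3 had no finite one. Of the other ERK-responsive factors 6 of 8 fell, with a median slope of -0.38. The immediate early gene Ier2 had 19.3 ± 1.12 min, close to Spry2, and Etv1, an ETS gene related to Etv4 and Etv5, had no finite half-life. In limma no gene of these lists rose in total RNA, where 3.39% of all genes did.

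In the nucleus, where 61.9% of all genes fell, the fallen numbered 6 of 9 ligands and co-receptors, 1 of 2 receptors, 6 of 6 adaptors, 4 of 6 Ras and Raf genes, 2 of 4 MEK and ERK genes, 8 of 10 negative regulators and 4 of 8 factors. Rps6ka3, which encodes the ERK substrate RSK2, rose there by 0.17 ± 0.07 log2 per h (limma adjusted p = 0.0476). In the cytosol (67.1% of all genes) they numbered 4 of 6, 1 of 1, 5 of 6, 5 of 6, 4 of 4, 8 of 10 and 6 of 7 in the same order, and in the membrane fraction (62.2%) 8 of 9, 2 of 2, 5 of 7, 5 of 6, 3 of 4, 8 of 10 and 7 of 8.

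Some of these other pathway genes differed in slope between fractions. Of all genes, 8.3% had a lower and 12.3% a higher slope in the nucleus than in the cytosol. For membrane against cytosol the shares were 1.76% and 4.94%. Dusp7, a phosphatase of ERK, had a higher nuclear than cytosolic slope, by 0.89 ± 0.12 (log2 per h, limma adjusted p = 5.48e-05) and higher in the membrane fraction by 0.51 ± 0.12 (adjusted p = 0.00866). Sos1, the exchange factor that loads Ras with GTP, was higher in nucleus and membrane, by 0.40 ± 0.08 and 0.31 ± 0.07. Araf was lower in both, by 0.45 ± 0.08 and 0.19 ± 0.05. The calls between nucleus and cytosol were lost when libraries were scaled to the mitochondrially encoded mRNAs (lowest adjusted p 0.0648, for Dusp7). The differences themselves moved little, to 0.92 for Dusp7, 0.43 for Sos1 and -0.42 for Araf, while 7 lower and 1 higher of 11232 genes passed at all. Sos1 turned negative between membrane and cytosol under that scaling.

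Over the 48 log2 ratios, the genes most like each of the 5 were found by Pearson's r, which here mainly reflects time, shared by all points. Fgf4 was most like Fbxo5 (r = 0.979) and Klf4 (0.977), and Spry2 most like Zfp146 (0.983) and Fbxo5 (0.981). Spry4 was most like N4bp3 (0.922) and Zfp329 (0.920). Spred1 was most like Ibtk (0.966) and Trim59 (0.964), and Spred2 most like Rybp (0.985) and Klhdc7a (0.983). Among the 5 themselves r ran from 0.808, between Spry4 and Spred1, to 0.964, between Fgf4 and Spry2.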

How the data were processed

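Groups and replicate numbers were taken from sample titles. Per the labels and methods, the authors aligned reads with STAR 2.7.6, quantified genes with RSEM 1.3.3, scaled libraries on long-lived genes and divided each series by its 0 min level, and the deposited values are these ratios. Whether each replicate had its own 0 min divisor is not given in the sources used here, and all times of a series share it. The last time is 240 min in the titles and 180 min in the protocol text. The 10 genes and the lists were chosen with earlier results of these data known. From the lists, the text names genes that rose, genes whose slope differed between fractions, and the shortest and longest half-life, except for some results that are not reported here. Genes listed in all libraries of a fit were tested on log2 of the ratio, without a pseudocount, with limma 3.58.1 under R 4.3.3 (empirical Bayes with a mean trend, two-sided, adjusted p under 0.05). Half-lives were fitted by least squares under Python 3.11.15, and a gene that did not decline in the fit was ranked above all finite half-lives. The change from 30 to 60 min was chosen after seeing the data. Simulated data were used to test the limma slopes in total and nuclear RNA and the changes over single intervals in total RNA. The slope difference between nucleus and cytosol and the exponential fit were also tested in that way. The other steps were not. The replicates came from separate passages of one line, so the spread between them is that between cultures of it. For slopes and slope differences, the error behind the p-values also holds the departure from a straight line.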

Additional observations from a re-analysis of the deposited data

Results flagged for a closer look

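Groups held 3 libraries each, so single libraries were not tested for standing apart. Differences between fractions were found for genes of the wider pathway, by the interaction of time with fraction in limma (adjusted p under 0.05, 24 libraries). Over all genes, 8.3% had a lower and 12.3% a higher slope in the nucleus than in the cytosol. For membrane against cytosol the shares were 1.76% and 4.94%. For the nuclear minus the cytosolic slope the differences in log2 per h were 0.90 for Klb, 0.89 for Dusp7, 0.44 for Ksr1, 0.41 for Map2k2, 0.40 for Sos1, 0.32 for Rps6ka3, 0.32 for Cblb, 0.30 for Rasa2, 0.20 for Crkl and 0.16 for Ets2. They were negative for Shc1, at -0.42, and for Araf, at -0.45. For the membrane minus the cytosolic slope they were 0.51 for Dusp7, 0.31 for Sos1, 0.31 for Sos2 and 0.16 for Nras, and -0.19 for Araf. With libraries scaled to the mitochondrially encoded mRNAs, none of these nuclear differences passed (lowest adjusted p 0.0648, Dusp7), though their sizes held (0.93 for Klb, 0.92 for Dusp7, 0.45 for Map2k2) and 7 lower and 1 higher of all 11232 genes passed. Between membrane and cytosol, Nras, Sos1 and Sos2 turned to -0.23, -0.07 and -0.08 while Araf passed at -0.58.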

How the results depend on the processing

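The slopes of single genes, recomputed 60 times with a replicate left out and 205 times under other settings, all kept their direction and call. The counts over single intervals did not hold as well. For 120 to 240 min, leaving out 1 replicate gave 0 to 4 genes in total RNA, 1 to 3 in the nucleus, 2 to 4 in the cytosol and 2 to 4 in the membrane fraction. In the same order, 11.9% to 29.8%, 10.9% to 29.4%, 36.9% to 37.2% and 23.0% to 29.6% of all genes then fell. A pseudocount of 0.1 gave 1, 2, 2 and 3 genes in that order, where 27.3%, 28.3%, 46.3% and 36.3% of all genes fell. In the nucleus centring gave 2 (18.2% of all genes fell) and scaling to mitochondrially encoded mRNAs 0 (1.5%). For 30 to 60 min, leaving out 1 replicate gave 0 to 0 genes in total, cytosol and membrane and 0 to 1 in the nucleus. Of all genes, 0% then fell in total and cytosol, at most 0.0312% in membrane and 0% to 5.43% in the nucleus. The pseudocount gave 4 in total, 3 in nuclear and 5 in membrane RNA, where 9.97%, 9.53% and 21.6% of all genes fell. Mitochondrial scaling gave 5 in both cytosol and membrane (where 74.8% and 40.7% of all genes then fell), and limma without trend 2 in the nucleus (4.26%). The 6 libraries of 30 and 60 min alone gave 0 in total, 0 in cytosol and 6 in membrane, Dusp6 included. In those fits 0.0207%, 0.00729% and 21.2% of all genes fell. Between nucleus and cytosol, the harvest block gave 1 gene (9.46% of all genes lower and 14.3% higher). Taking 180 min as the last time also gave 1 (9.25% lower and 11.1% higher). Between membrane and cytosol, mitochondrial scaling gave 3, with 56.6% of all genes lower.

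Signs turned for 120 to 240 min in Spry4 in total RNA (-0.94 to 0.25 with 1 replicate left out) and, under mitochondrial scaling, in nuclear Spry4 (0.0084) and Spred1 (0.17). The slope difference between nucleus and cytosol turned for Fgf4 with the pseudocount (0.091) and with 30, 60 and 120 min only (0.41), and for Spred2 with centring (0.0033), mitochondrial scaling (0.0033), the pseudocount (0.0088) and replicates left out (-0.066 to 0.015). Between membrane and cytosol, mitochondrial scaling turned Spry2 to -0.15, Spred1 to -0.33 and Spred2 to -0.36. The pseudocount turned Spry4 to 0.016. With 30, 60 and 120 min only, Spry4 was at 0.73, Spred1 at -0.043 and Spred2 at -0.019, and left-out replicates put Spred2 at -0.015 to 0.096.

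The median half-life in minutes moved with a straight line on log2 of the ratio to 71.9 in total, 70.4 in nuclear, 58.3 in cytosolic and 52.8 in membrane RNA. Centring gave 66.2, 29.0 and 53.5 in the last 3 of these, and mitochondrial scaling 24.7, 14.6 and 21.4. With the level at 0 min fixed at 1 it was 21.4 in the nucleus and 27.4 in the cytosol. In the nucleus, scaling to ribosomal protein genes gave 36.6, leaving out replicate 1 of 30 min 36.0, and leaving out 1 replicate throughout 35.1 to 41.9. The cause of these changes was not tested.

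Mitochondrial scaling moved the median slope of all genes from -0.22 to -0.34 in total RNA, and centring split the calls there into 3961 lower and 3672 higher, against 7262 and 432. The replicate block gave 3 genes for 30 to 60 min in total RNA (2.69% of all genes fell) and 2 in membrane (4.91%), and left the other counts of the 5 genes as they were. The genes behind a count could change: for 120 to 240 min in total RNA the block lost Spry2 (adjusted p = 0.0626) and gained Spred1 (0.0266), for 30 to 60 min it gained Spred2 in total RNA (0.0472), and in membrane it lost Spred1 (0.0589). Deviations of same-numbered libraries of a fraction were weakly correlated, with 6 of 72 pairs over 0.1 (median 0.025). Between membrane and cytosol of the same harvest the 12 correlations ran from 0.032 to 0.167. Between nucleus and cytosol of the same harvest they ran from -0.096 to 0.063. Low correlations do not show that libraries are unpaired. The depth behind the ratios is unknown, so no counting error can be given for the low ratios.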
